A study of Homo sapiens with 40 samples.

Results

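The TREM2-R47H and SORL1-KO lines of human microglia-like cells were contrasted directly, without the unedited parent, using 14 of the 40 RNA libraries of the series. The members were chosen by label: the 7 libraries of TREM2-R47H and the 7 libraries of SORL1-KO. The pair was picked because earlier results on these data had APOE above WT in both, which is not particular to them. The starting cells were H9, a widely used line of human embryonic stem cells. TREM2-R47H carries CRISPR/Cas9 edits that change arginine 47 of TREM2 on both alleles. SORL1-KO carries CRISPR/Cas9 edits that place a stop at codon 744 of SORL1 on both alleles, which the protocol writes as R744X. WT is unedited H9 and entered only an alternative fit over all 40 libraries. Values of the other edited groups are given beside the contrast as description. TREM2-KO (8 libraries) is the TREM2 knockout, and SORL1-A528T (7 libraries) carries the missense change A528T of SORL1. CD33-SNP and INPP5D-SNP (2 libraries each) are named for variants of CD33 and INPP5D. Per the protocols, cells of every group were collected as blood progenitors on day 11 and kept for 28 more days in 3 factors: IL-34 at 100 ng/mL, M-CSF at 25 ng/mL, and TGF-beta 1 at 50 ng/mL. CD200 and CX3CL1 (100 ng/mL each) were present for the last 3 days. The labels do not say how many edited clones stand behind a line, or whether the 7 libraries were separate cultures. The p-values therefore reflect only how far these libraries varied, possibly for technical reasons, and a difference between the edits cannot be told apart from a difference between clones.

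TREM2 is a surface receptor of microglia that binds lipids and lipoproteins, APOE among them, and signals through the adaptor TYROBP. SORL1 is a sorting receptor that carries cargo between endosomes and the Golgi with the retromer complex. Variants in both genes, and in the lipid carrier APOE, are associated with Alzheimer's disease.

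The edited sites are shown first because the groups are defined by them. In the reference transcripts of GENCODE release 29 (GRCh38), codon 47 of TREM2 lies in exon 2 of 5 at chr6:41161513-41161515 on the minus strand. Codon 744 of SORL1 lies in exon 16 of 48 at chr11:121550634-121550636 on the plus strand. Both sequences are the unedited reference in coding direction, with the named codon in capitals. The stop in SORL1-KO therefore falls at residue 744 of the 2214 that the longest coding transcript holds.
TREM2: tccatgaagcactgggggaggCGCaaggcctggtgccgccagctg
SORL1: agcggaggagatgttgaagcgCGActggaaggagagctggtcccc

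All values were TPM, which scales each library to the same total for 60504 genes. Between 13208 and 13693 genes reached 1 TPM in TREM2-R47H libraries, and between 13313 and 14004 did in SORL1-KO libraries. Depth per library is unknown, since TPM holds no read counts. The protocol gives a mean of 45.13 M reads, with extremes of 39.2 M and 64.6 M. For the labelled cell type, 10 of 10 microglial markers, among them AIF1, CSF1R and SPI1, passed the filter on low values. So did 5 of 10 stromal markers, so passing the filter alone does not establish the cell type. P2RY12 had medians of 19.5 TPM in TREM2-R47H and 37.4 TPM in SORL1-KO, and TMEM119 had 9.25 and 4.47 TPM. The summed level of the microglial markers was 4842.8, 5204.7 and 6960.8 TPM (lowest, median, highest) in TREM2-R47H and 5885.0, 6039.2 and 10012.3 TPM in SORL1-KO, and none of them passed the test. Summed stromal markers had medians of 26.8 TPM in TREM2-R47H and 13.3 TPM in SORL1-KO, and summed pluripotency markers were at most 0.2 and 0.6 TPM in these lines. The corresponding stromal sum had a median of 539.9 TPM in WT. SORL1-KO replicate 7 stood apart from the other libraries, with a median correlation of 0.9275 to its own group against 0.9642 to 0.9833 for the other 13. SORL1-KO replicate 4 and TREM2-R47H replicate 4 came next along the first principal component, so counts below are also given without these 3 libraries. In such bulk samples, fewer cells of a type and less RNA per cell cannot be told apart.

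APOE did not separate the lines, whereas SORL1 did. APOE (ENSG00000130203, GRCh38 chromosome 19, 44905754 to 44909393) was at 3243, 4158 and 5840 TPM (lowest, median, highest) in TREM2-R47H and at 3575, 4456 and 5714 TPM in SORL1-KO. These ranges overlapped almost entirely. The means were 4199 ± 907 TPM in TREM2-R47H and 4494 ± 839 TPM in SORL1-KO (SD, n = 7 each), and the WT mean was 2669 ± 982 TPM (SD, n = 7). The APOE mean was also above that of WT in SORL1-A528T (3783 TPM) and CD33-SNP (3356 TPM). The log2 fold change of TPM + 1, TREM2-R47H over SORL1-KO, was -0.10 ± 0.14 (SE; limma adjusted p = 0.739), with a 95% interval of -0.40 to 0.20. The 2-sided exact permutation p over the 3432 splits of 7 against 7 was 0.498, also 0.498 after adjustment over the 3 genes tested this way. A p above the threshold does not show that the lines are alike, and the interval still allows APOE to be lower in TREM2-R47H by 0.40 on this scale. The neighbouring apolipoprotein genes of the same cluster, chosen after their values were seen, were not separated either. APOC1 averaged 1184 ± 286 TPM in TREM2-R47H and 1012 ± 178 TPM in SORL1-KO, and APOC2 averaged 66.4 ± 14.9 and 58.6 ± 18.9 TPM (SD, n = 7 each; limma adjusted p = 0.55 and 0.635).

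TREM2 (ENSG00000095970, chromosome 6, 41158506 to 41163186) was at 391, 451 and 646 TPM in TREM2-R47H and at 402, 588 and 780 TPM in SORL1-KO. The groups overlapped, and TREM2-R47H replicate 4 was the only library of its line above 466 TPM. The change of -0.23 ± 0.16 (SE; 95% interval -0.57 to 0.10) did not pass limma's test (adjusted p = 0.535) or the 2-sided exact permutation test (p = 0.203, 0.304 over the 3 genes). The R47H edit alters the protein and the table carries no allele counts, so the TREM2 level checks the label only as far as the gene was still transcribed.

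SORL1 (ENSG00000137642, chromosome 11, 121452203 to 121633693) was at 52.1, 56.1 and 80.2 TPM in TREM2-R47H and at 12.6, 16 and 21.5 TPM in SORL1-KO. Every TREM2-R47H library was above every SORL1-KO library. The means were 58.7 ± 9.82 TPM in TREM2-R47H and 16.1 ± 3.00 TPM in SORL1-KO (SD, n = 7 each), a log2 change of 1.81 ± 0.12 (SE; limma adjusted p = 6.32e-07). The 2-sided exact permutation p was 0.000583, the smallest that 7 against 7 libraries allow (0.00175 over the 3 genes). The WT mean of 33.3 ± 9.74 TPM lay between the lines, so SORL1-KO lay below WT and TREM2-R47H above it. The RNA that remained in SORL1-KO does not report on the protein.

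**Figure D1:**
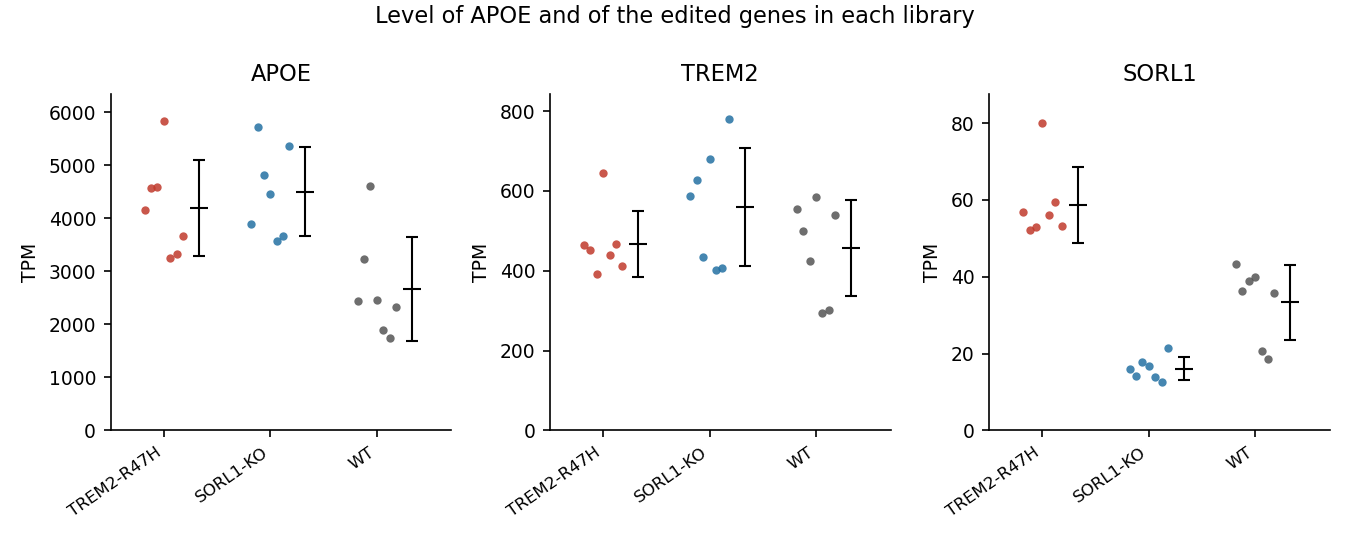
APOE, TREM2 and SORL1 in TPM (y axes, from 0) in each library of TREM2-R47H, SORL1-KO and WT; points are libraries and bars show the mean ± SD (n = 7 each). The APOE and TREM2 points of TREM2-R47H and SORL1-KO overlap, while the lowest SORL1 value in TREM2-R47H, 52.1 TPM, is above the highest in SORL1-KO, 21.5 TPM.

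Across the transcriptome few genes passed the adjusted threshold, and more of these were lower in TREM2-R47H. The filter of 1 TPM or more in 7 or more of the 14 libraries kept 13351 genes, and 136 of them were called at a limma adjusted p below 0.05, which is 1.02%. Of the called genes, 31 were higher in TREM2-R47H (0.232% of kept genes) and 105 were lower (0.786%). An unadjusted limma p below 0.05 was seen at 1853 genes (13.9%), 470 higher and 1383 lower. The count of calls therefore does not show that the lines were otherwise alike. At least a 2-fold change was seen in 32 of the called genes (0.24%). In 133 genes (0.996%) no library of either line fell within the range of the other line, and 82 of these were among the called genes.

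The split between the directions moved with the scaling of the libraries. Called genes that were higher in TREM2-R47H made up 22.8% with TPM as deposited, 32.7% with median-ratio scaling (32 higher, 66 lower) and 39.1% with quantile normalization (36 higher, 56 lower). The median log2 change of all kept genes was -0.032, 0.014 and 0.008 under these scalings. Without the 3 libraries that stand apart, 228 genes were called (48 higher, 180 lower), and 112 of the 136 were among them. Single libraries also moved the count: it was 54 without TREM2-R47H replicate 3 and 192 without SORL1-KO replicate 3. A core of 49 genes (13 higher, 36 lower) was called whichever 1 of the 14 libraries was left out.

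**Figure D2:**
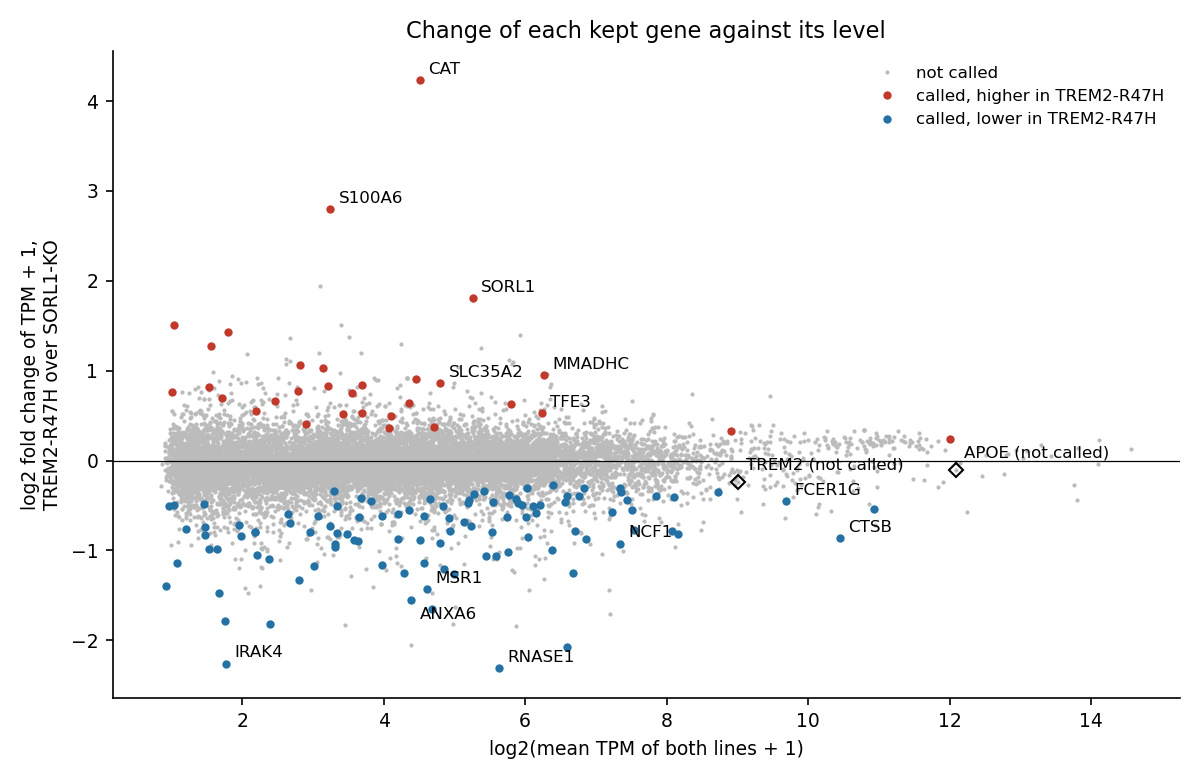
Log2 fold change of TPM + 1, TREM2-R47H over SORL1-KO (y axis), against the log2 of the mean TPM of both lines + 1 (x axis) for the 13351 kept genes. The 31 genes called higher in TREM2-R47H are red, the 105 called lower are blue, and APOE and TREM2 are drawn as open diamonds near 0.

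Of the 13351 kept genes, CAT had the largest change; it encodes catalase, the peroxisomal enzyme that breaks down hydrogen peroxide, and was low in SORL1-KO. CAT (ENSG00000121691, chromosome 11, 34438925 to 34472062) was at 35.6, 36.9 and 56.5 TPM in TREM2-R47H and at 0.51, 1.07 and 2.93 TPM in SORL1-KO. The groups were far apart, with a change of 4.23 ± 0.20 (SE; limma adjusted p = 2.17e-08). The WT mean was 62.6 ± 7.59 TPM (SD, n = 7). CAT averaged 63.5 TPM in SORL1-A528T, the other SORL1 line, and 29.2 TPM in TREM2-KO. CAT lies on the same chromosome as the edited SORL1 but on its short arm, and none of the 12 kept genes around it passed the test. Among 25 kept antioxidant genes, CAT was the only call, higher in TREM2-R47H (0.232% of all kept genes were called higher). The median change of that list was -0.05 and lay between -0.12 and 0.02 when 1 library was left out.

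S100A6 and MMADHC were also lower in SORL1-KO. S100A6 (ENSG00000197956, chromosome 1, 153534599 to 153536244), a small calcium-binding protein, was at 11.5, 17.4 and 19.9 TPM in TREM2-R47H and at 0.87, 1.08 and 2.82 TPM in SORL1-KO, a change of 2.79 ± 0.18 (SE; limma adjusted p = 6.09e-07). The lines did not overlap, but S100A6 varied in the other groups, with a range of 2.23 to 41.5 TPM in WT. In SORL1-A528T its mean was 4.05 TPM, but its median was 1.14 TPM and its highest library 18.9 TPM. MMADHC (ENSG00000168288, chromosome 2, 149569634 to 149587816), which takes part in the intracellular handling of vitamin B12, behaved differently: it was tight within every group. Its range was 92.2 to 110 TPM in TREM2-R47H and 48.9 to 54.8 TPM in SORL1-KO, with medians of 101 and 51.5 TPM. The change was 0.95 ± 0.06 (SE; limma adjusted p = 2.12e-07). MMADHC averaged between 95.9 and 103 TPM in the other 5 groups. ZNF717, a zinc finger gene chosen after its values were seen, averaged 2.04 ± 0.659 TPM in TREM2-R47H and 0.0486 ± 0.0488 TPM in SORL1-KO (SD, n = 7 each; change 1.51, limma adjusted p = 1.99e-05). ZNF717 averaged 1.85 TPM in WT.

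TREM2-R47H in turn had almost no RNA of IRAK4, the kinase that Toll-like and interleukin-1 receptors engage through MYD88. IRAK4 (ENSG00000198001, chromosome 12, 43758944 to 43789543, plus strand) was at 0, 0.12 and 0.21 TPM in TREM2-R47H and at 1.75, 5.33 and 8.02 TPM in SORL1-KO. All 7 TREM2-R47H libraries were below every library of SORL1-KO, while WT averaged 6.34 ± 0.914 TPM (SD, n = 7). A change of -2.26 ± 0.23 was fitted (SE; limma adjusted p = 0.000145), which understates the loss because 1 TPM is added to each value. The means of the other 4 edited lines lay between 4 TPM in CD33-SNP and 7.15 TPM in TREM2-KO. The other TREM2 line therefore did not share the low level.

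PUS7L (ENSG00000129317, chromosome 12, 43718993 to 43758817, minus strand), a pseudouridine synthase-like gene that starts head to head with IRAK4 and was chosen after its values were seen, was low in the same libraries. It averaged 0.0329 ± 0.0446 TPM in TREM2-R47H and 1.74 ± 0.44 TPM in SORL1-KO (SD, n = 7 each; change -1.39 ± 0.12 SE, limma adjusted p = 1.16e-05). The highest TREM2-R47H library had 0.13 TPM and the lowest SORL1-KO library 1.08 TPM. The next kept gene beyond IRAK4 was TWF1, an actin-binding protein chosen after its values were seen, at 24.9 ± 3.53 TPM in TREM2-R47H and 29 ± 2.92 TPM in SORL1-KO (SD, n = 7 each), and it was not called (limma adjusted p = 0.3). The 126 bases between the 2 annotated starts are printed because both genes begin at this stretch. They are the plus strand of the RefSeq reference (GRCh38.p14) at chr12:43758818-43758943, with each CG in capitals.
PUS7L to IRAK4: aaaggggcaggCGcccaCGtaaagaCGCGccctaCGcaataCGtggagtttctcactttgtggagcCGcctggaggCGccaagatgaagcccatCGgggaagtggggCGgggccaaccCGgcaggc
The letters CG, which read the same on both strands, occur 11 times in it. The 300-base RefSeq promoter window of IRAK4 holds 28, and 26.2% of the 35116 windows in that table hold at least as many. The table of TPM says nothing of the sequence or methylation of this stretch in either line.

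**Figure D3:**
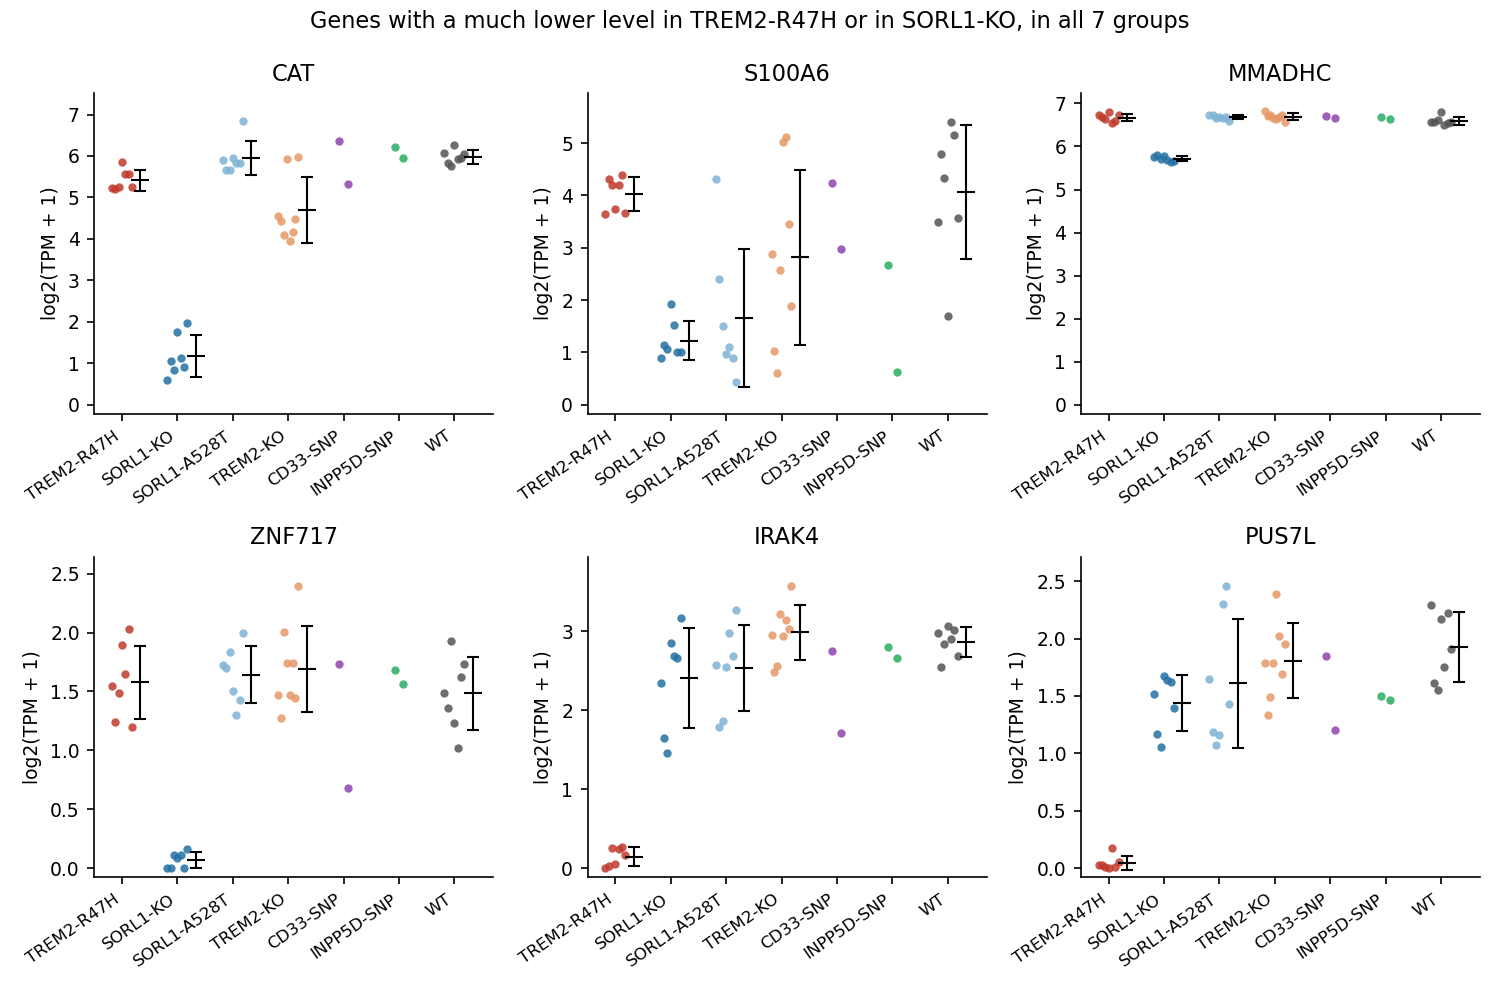
Log2(TPM + 1) of CAT, S100A6, MMADHC, ZNF717, IRAK4 and PUS7L (y axes) in each library of all 7 groups; bars show the mean ± SD where a group has 7 or 8 libraries, and CD33-SNP and INPP5D-SNP have 2 each. CAT and ZNF717 are near 0 in SORL1-KO, IRAK4 and PUS7L are near 0 in TREM2-R47H, and MMADHC is lower in SORL1-KO than in every other group.

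SLC35A2 and TFE3, which lie close together on the short arm of the X chromosome, were higher in TREM2-R47H. SLC35A2, the UDP-galactose transporter of the Golgi, was at 29, 35.6 and 42.5 TPM in TREM2-R47H and at 13.7, 19.3 and 22.2 TPM in SORL1-KO (change 0.86 ± 0.10 SE, limma adjusted p = 0.00093). TFE3, a transcription factor of lysosomal genes, was at 81.2, 89.3 and 95.5 TPM in TREM2-R47H and at 56.2, 61.7 and 67.9 TPM in SORL1-KO (change 0.53 ± 0.06 SE, limma adjusted p = 0.000483). Neither gene overlapped between the lines. The 3 kept genes between them, PIM2, OTUD5 and GRIPAP1, chosen after their values were seen, had changes of 0.55, 0.46 and 0.42 and were not called (limma adjusted p = 0.267, 0.0893 and 0.0579). The genes on either side, PQBP1 and CCDC120, had changes of 0.15 and -0.04. The level in TREM2-R47H was not particular to that line: SLC35A2 averaged 35.8 TPM in SORL1-A528T and 32.4 TPM in INPP5D-SNP, against 21.2 TPM in WT. TFE3 averaged 110 and 115 TPM in those lines, against 66.0 TPM in WT.

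**Figure D4:**
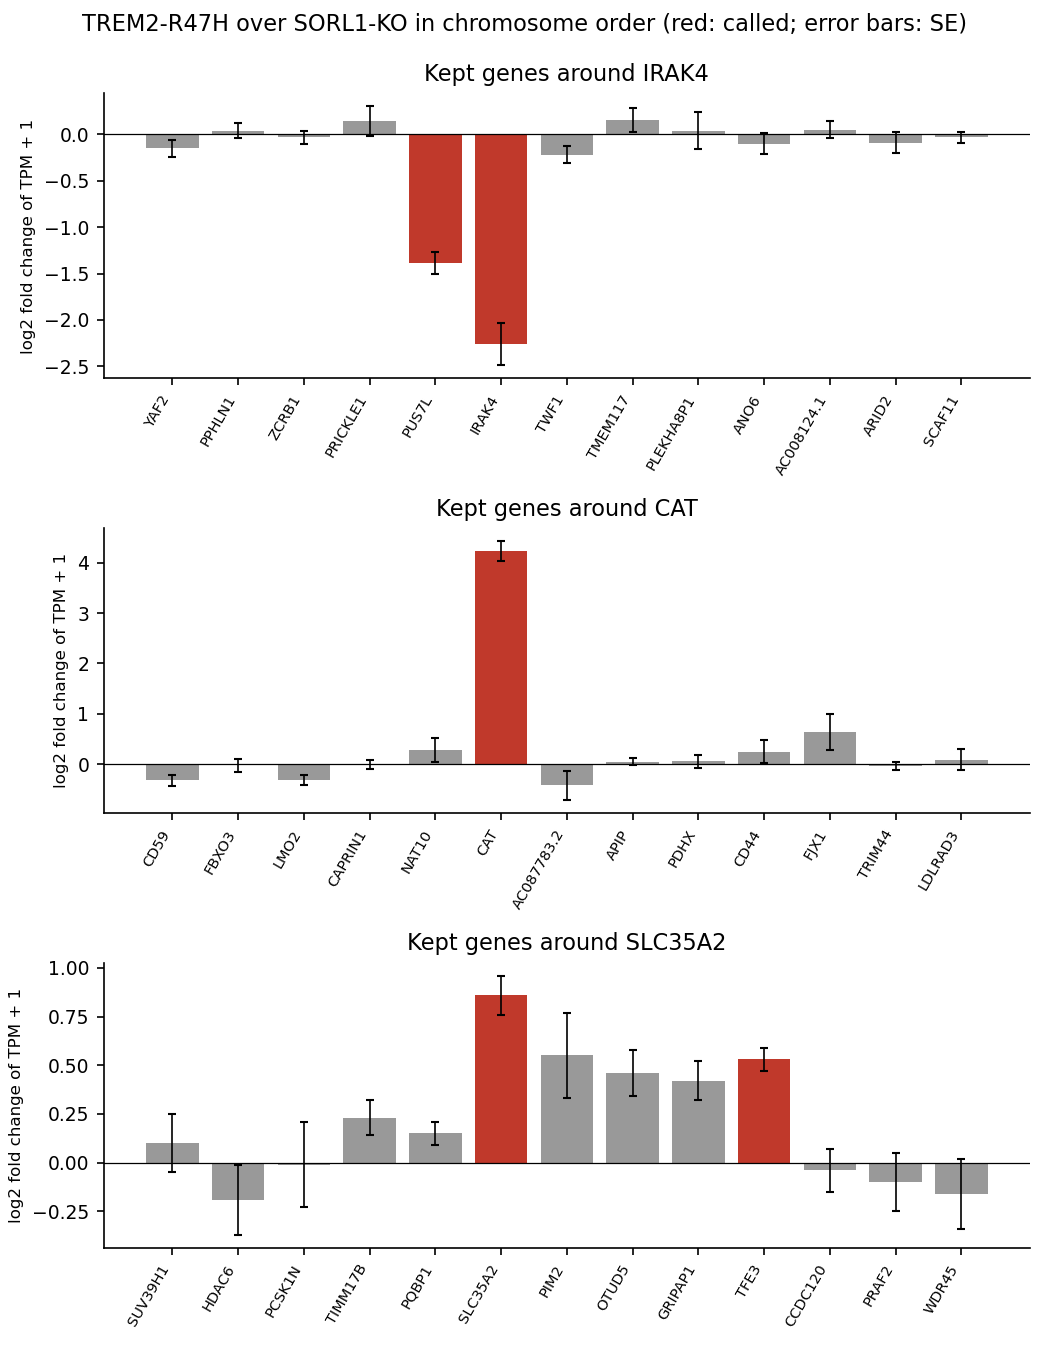
Log2 fold change of TPM + 1, TREM2-R47H over SORL1-KO (bars, y axes; error bars are SE), for the kept genes in chromosome order around IRAK4, CAT and SLC35A2; called genes are red. IRAK4 and PUS7L are low together, CAT changes alone, and SLC35A2 and TFE3 end a run of 5 genes above 0.4.

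Further named genes were higher in TREM2-R47H. HIST3H2A, a replication-type histone H2A, averaged 19 ± 1.09 TPM in TREM2-R47H and 13.2 ± 1.37 TPM in SORL1-KO (change 0.49), and NPW, the precursor of neuropeptide W, averaged 7.76 ± 1.42 and 4.11 ± 0.822 TPM (change 0.78; SD, n = 7 each; limma adjusted p = 0.00318 and 0.00894). Both were called whichever library was left out. STK26, a serine/threonine kinase, changed by 0.37 and lost its call without TREM2-R47H replicate 7 (limma adjusted p = 0.0196 with all libraries and 0.0522 without it). CTSW, a cathepsin best known from cytotoxic lymphocytes, changed by 0.75. It was called with all libraries (limma adjusted p = 0.0346) but not without TREM2-R47H replicates 1, 3 or 7 or SORL1-KO replicates 4, 5 or 6 (up to 0.0833), nor without the 3 libraries that stand apart. DCLK2, ATP8B2 and the noncoding RNA ZFAS1 changed by 0.52, 0.41 and 0.33. Their calls held in 3, 3 and 2 of the 14 fits that each left out 1 library, with limma adjusted p up to 0.112, 0.0927 and 0.0958. They held without TREM2-R47H replicate 4 or SORL1-KO replicates 3 or 7 for DCLK2, without TREM2-R47H replicate 4 or SORL1-KO replicates 1 or 4 for ATP8B2, and without SORL1-KO replicates 3 or 7 for ZFAS1. DCLK2 was not called with quantile normalization or with all 40 libraries in the fit (limma adjusted p = 0.0561 and 0.0546), and ATP8B2 was not called with a stromal score as covariate (0.0524). The sarcomere-associated gene XIRP1 and the nicotinamide riboside kinase gene NMRK2, chosen after their values were seen, averaged 4.06 ± 1.25 and 3.13 ± 0.673 TPM in TREM2-R47H. They averaged 0.867 ± 0.457 and 0.733 ± 0.424 TPM in SORL1-KO (SD, n = 7 each; changes 1.43 and 1.27, limma adjusted p = 0.0018 and 0.00102). Both also had means below 1.2 TPM in each of the other 5 groups.

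MSR1 and CD28, which encode cell surface receptors, were lower in TREM2-R47H. MSR1, a scavenger receptor for modified lipoproteins, was at 7.80, 11.7 and 21.4 TPM in TREM2-R47H and at 25.5, 32.9 and 49.9 TPM in SORL1-KO. The lines did not overlap, and the WT mean of 21.7 TPM lay between their means. MSR1 was also low in the other TREM2 line, at a mean of 10.2 TPM in TREM2-KO. The change was -1.43 ± 0.19 (SE; limma adjusted p = 0.0018). CD28, the costimulatory receptor best known from T cells and chosen after its values were seen, averaged 0.437 ± 0.276 TPM in TREM2-R47H and 4.30 ± 2.42 TPM in SORL1-KO (SD, n = 7 each; change -1.79, limma adjusted p = 0.00184). CD28 averaged 1.17 TPM in TREM2-KO and 3.72 TPM in WT. The summed lymphoid markers had medians of 14.5 TPM in TREM2-R47H and 11.6 TPM in SORL1-KO, with 0 of 2 kept markers called. Most of that sum was NKG7, with medians of 12.7 and 9.35 TPM. The T cell markers CD3D and CD3E had medians of 0.74 and 0.29 TPM in TREM2-R47H and 1.28 and 0.57 TPM in SORL1-KO. Their highest values went the other way, at 3.43 and 2.72 TPM in TREM2-R47H and 3.17 and 0.85 TPM in SORL1-KO. CD3D was not called (limma adjusted p = 0.503), and CD3E did not pass the filter.

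The Fc gamma receptor list, whose products bind IgG or carry its signal, lay below 0 for all 9 of its kept genes. Of these, 3 were called lower and 0 higher, against 0.786% called lower of all kept genes, and the median change was -1.10, against -0.03 over all kept genes. FCER1G, the signalling chain shared by several Fc receptors, was at 626, 701 and 774 TPM in TREM2-R47H and at 834, 918 and 1077 TPM in SORL1-KO (change -0.45 ± 0.07 SE, limma adjusted p = 0.00663). No library overlapped, and the call of FCER1G held in 14 of 14 fits without 1 library. FCGRT, the neonatal Fc receptor that recycles IgG, averaged 202 ± 34.0 TPM in TREM2-R47H and 368 ± 120 TPM in SORL1-KO, and FCGR2B, the inhibitory Fc gamma receptor, averaged 10.4 ± 3.64 and 39.2 ± 23.3 TPM (SD, n = 7 each). Their changes of -0.82 and -1.66 were called (limma adjusted p = 0.0382 and 0.0346) but held in only 5 of the 14 fits each. They held without TREM2-R47H replicate 4 and without SORL1-KO replicates 3 or 7, and also without SORL1-KO replicates 5 or 6 for FCGRT and 1 or 2 for FCGR2B (limma adjusted p up to 0.0946 and 0.0827 otherwise). The activating receptors FCGR1A, FCGR2A and FCGR3A, chosen after their values were seen, were not called, at 57.2 ± 32.6, 40.8 ± 26.5 and 10.5 ± 6.46 TPM in TREM2-R47H and 99.8 ± 34.5, 104 ± 105 and 39.0 ± 38.7 TPM in SORL1-KO (limma adjusted p = 0.207, 0.346 and 0.147). FCGR2A, FCGR2B and FCGR2C are near-identical in sequence, so the split of reads between them is uncertain. Without the 3 libraries that stand apart, 4 of the 9 were called lower and the median change was -0.87. With median-ratio scaling 3 were called and with quantile normalization 2, without FCGRT, and all 9 were below 0 under both. Over all 13351 kept genes, 180, 66 and 56 were called lower in these 3 fits.

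Few signalling genes downstream of these receptors were called. DOK3, an adaptor that dampens TYROBP and Fc receptor signals, was at 54.4, 57.9 and 73.3 TPM in TREM2-R47H and at 67.8, 85.5 and 95.8 TPM in SORL1-KO. The ranges met at their edges, and the change was -0.49 ± 0.09 (SE; limma adjusted p = 0.0134); an annotated transcript on the other strand overlaps the gene and was called in the same direction. DOK3 was not called when libraries 5 and 6 of each line were averaged (limma adjusted p = 0.0656). DOK3 was the only call among 26 kept TYROBP signalling genes, against 0.786% called lower of all kept genes. Of the 26, 22 were below 0 with a median of -0.20, against 7566 of 13351 and -0.03 over all kept genes. TYROBP itself, chosen after its values were seen, averaged 1379 ± 144 TPM in TREM2-R47H and 1785 ± 475 TPM in SORL1-KO (SD, n = 7 each) and was not called (limma adjusted p = 0.273). FES, a tyrosine kinase of myeloid cells, averaged 17.5 ± 2.47 TPM in TREM2-R47H and 36.0 ± 16.1 TPM in SORL1-KO without overlap (change -0.91, limma adjusted p = 0.0404). Its call held in 5 of 14 fits, those without TREM2-R47H replicate 4 or SORL1-KO replicates 1, 3, 5 or 7 (adjusted p up to 0.102 otherwise). FES was not called under the median-ratio or quantile scaling.

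Cytosolic subunits of the phagocyte NADPH oxidase, which makes superoxide, were lower in TREM2-R47H. NCF1 (p47phox) was at 78.8, 111 and 135 TPM in TREM2-R47H and at 177, 224 and 236 TPM in SORL1-KO. The lines did not overlap, and the WT mean of 357 ± 43.7 TPM lay above both. The change was -0.92 ± 0.12 (SE; limma adjusted p = 0.0018). Its near-identical copies NCF1B and NCF1C changed by -1.01 and -0.99, and how reads were divided among the 3 is uncertain. NCF4 (p40phox), chosen after its values were seen, averaged 74.0 ± 7.66 TPM in TREM2-R47H and 132 ± 38.8 TPM in SORL1-KO (SD, n = 7 each; change -0.79, limma adjusted p = 0.0159). NCF4 was not called when libraries 5 and 6 of each line were averaged (limma adjusted p = 0.0591). CYBB, the membrane subunit that moves the electrons and also chosen after its values were seen, was at 842 ± 196 and 819 ± 88.2 TPM in these lines (change 0.02, limma adjusted p = 0.956).

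CXCL1, NFKBIZ and MIR3142HG were lower in TREM2-R47H. CXCL1, a chemokine for neutrophils, was at 0.27, 0.62 and 1.06 TPM in TREM2-R47H and at 1.10, 3.81 and 6.18 TPM in SORL1-KO, so the lines did not overlap (change -1.48 ± 0.23 SE, limma adjusted p = 0.00459). MIR3142HG, the noncoding host transcript of the NF-kB responsive miR-146a, averaged 1.12 ± 0.236 TPM in TREM2-R47H and 7.41 ± 4.81 TPM in SORL1-KO (SD, n = 7 each; change -1.82, limma adjusted p = 0.00326). NFKBIZ, an inducible regulator of NF-kB target genes, averaged 13.3 ± 3.20 TPM in TREM2-R47H and 32.0 ± 13.4 TPM in SORL1-KO (change -1.14, limma adjusted p = 0.0289). NFKBIZ lost its call without TREM2-R47H replicates 1, 2, 3 or 7 or SORL1-KO replicates 4 or 5 (adjusted p up to 0.0703). CXCL1 and NFKBIZ were the only calls among 22 kept cytokine, chemokine and NF-kB genes, against 0.786% called lower of all kept genes. In that list 9 of 22 genes were above 0, and its median of -0.08 lay between -0.18 and 0.04 when 1 library was left out, against -0.03 over all kept genes. Without the 3 libraries that stand apart, 4 of its genes were called lower, against 180 of 13351 kept genes in that fit. Among 25 kept genes of Toll-like receptor signalling, IRAK4 was the only call (0.786% of all kept genes were called lower), and the median was -0.18. In that list 3 genes were called lower without the same 3 libraries, against the same 180 of 13351 kept genes. MYD88, IRAK1 and TRAF6, its partners in the same cascade and chosen after their values were seen, were at 43.5, 134 and 10.7 TPM in TREM2-R47H and at 49.3, 118 and 10.1 TPM in SORL1-KO and were not called (limma adjusted p = 0.391, 0.482 and 0.75).

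The lysosomal proteases CTSB and CTSD were lower in TREM2-R47H. CTSB, a cysteine protease, was at 825, 923 and 1393 TPM in TREM2-R47H and at 1355, 1652 and 2414 TPM in SORL1-KO. Only TREM2-R47H replicate 4 and SORL1-KO replicate 3 overlapped, and the change of -0.86 ± 0.13 (SE; limma adjusted p = 0.00507) was called whichever library was left out. CTSD, an aspartic protease, averaged 1582 ± 234 TPM in TREM2-R47H and 2308 ± 415 TPM in SORL1-KO (change -0.54, limma adjusted p = 0.0432), and its call held only without TREM2-R47H replicate 4 or SORL1-KO replicate 3 (adjusted p up to 0.0989 otherwise). ATP6V0D2, a subunit of the proton pump, averaged 8.64 ± 3.12 TPM in TREM2-R47H and 20.7 ± 7.74 TPM in SORL1-KO (SD, n = 7 each; change -1.16, limma adjusted p = 0.0346). Its call held in 6 of 14 fits, those without TREM2-R47H replicates 4 or 7 or SORL1-KO replicates 3, 5, 6 or 7 (up to 0.0794 otherwise). These 3 were the genes called lower among 40 kept lysosomal genes, and TFE3 was the gene called higher, against 0.786% called lower and 0.232% called higher of all kept genes. Leaving out 1 library gave between 1 and 6 genes called lower in that list, and between 39 and 154 over all kept genes. Of the 40, 37 were below 0 with a median of -0.31, against 7566 of 13351 below 0 and a median of -0.03 over all kept genes. At an unadjusted limma p below 0.05, 24 of the 40 were lower and 1 higher, against 10.4% and 3.52% of all kept genes. LAMP1, an abundant protein of the lysosomal membrane chosen after its values were seen, was at 135 ± 12 TPM in TREM2-R47H and 168 ± 31.2 TPM in SORL1-KO and was not called (SD, n = 7 each; limma adjusted p = 0.221). With quantile normalization the genes called lower in this list were 1, with median-ratio scaling 2, and without the 3 libraries that stand apart 3. The medians were -0.26, -0.26 and -0.22. Over all 13351 kept genes, 56, 66 and 180 were called lower in these 3 fits. CTSD was not called under either scaling, and ATP6V0D2 was not called with quantile normalization or without the 3 libraries.

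SLC11A1, CP and S100A9 were called lower in TREM2-R47H, each in few of the fits that left out 1 library. SLC11A1, a metal transporter of phagosomes, averaged 29.7 ± 10.3 TPM in TREM2-R47H and 64.2 ± 22.7 TPM in SORL1-KO, and CP, the ferroxidase ceruloplasmin, averaged 0.989 ± 0.729 and 2.78 ± 0.762 TPM (SD, n = 7 each). Their changes of -1.07 and -0.99 were called (limma adjusted p = 0.041 and 0.0446), and 2 of 16 kept genes of iron handling were called lower in all, against 0.786% of all kept genes. The median of the iron list was -0.42, against -0.03 over all kept genes. Without the 3 libraries that stand apart, 4 genes of the iron list were called lower, against 180 of 13351 kept genes. SLC11A1 averaged 18.9 TPM in TREM2-KO and 50.2 TPM in WT. The call of SLC11A1 held only without TREM2-R47H replicate 4 or SORL1-KO replicate 3, and that of CP only without TREM2-R47H replicates 2 or 4 (adjusted p up to 0.103 for both otherwise). Neither was called under the median-ratio or quantile scaling, and S100A9 was not either. S100A9, a subunit of the neutrophil and monocyte protein calprotectin, was at 16, 23.3 and 107 TPM in TREM2-R47H and at 42.5, 146 and 355 TPM in SORL1-KO. The lines overlapped, and the change of -2.07 was called (limma adjusted p = 0.0463) but held only without TREM2-R47H replicate 4 or SORL1-KO replicate 3 (up to 0.112 otherwise). Its partner S100A8, chosen after its values were seen, was not called (12.1 ± 9.64 TPM in TREM2-R47H and 48.8 ± 36.4 TPM in SORL1-KO, SD, n = 7 each; limma adjusted p = 0.092). S100A9 and S100A6 were the calls among 11 kept monocyte and neutrophil genes, in opposite directions, against 1.02% called of all kept genes.

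RNASE1, a secreted ribonuclease, had the most negative change of the 105 genes called lower. It was at 6.4, 11.6 and 19.5 TPM in TREM2-R47H and at 23.6, 63.0 and 183 TPM in SORL1-KO, without overlap (change -2.31 ± 0.39 SE, limma adjusted p = 0.00994). The means of the other 5 groups were between 58.7 TPM in WT and 169 TPM in TREM2-KO. ANXA6, a calcium-dependent membrane-binding annexin, was at 6.25, 9.75 and 12.4 TPM in TREM2-R47H and at 14.9, 30.9 and 53.7 TPM in SORL1-KO (change -1.55 ± 0.23 SE, limma adjusted p = 0.0036). The lines did not overlap, and the WT mean of 51.4 TPM was above both. TSPAN15, a tetraspanin that partners the protease ADAM10, averaged 27.4 ± 6.70 TPM in TREM2-R47H and 57.8 ± 12.1 TPM in SORL1-KO, and MSRB2, a mitochondrial methionine sulfoxide reductase, averaged 5.72 ± 1.16 and 12.1 ± 2.65 TPM (SD, n = 7 each). Their changes of -1.06 and -0.96 were called whichever library was left out (limma adjusted p = 0.00645 and 0.00276), as was that of the noncoding transcript AC110995.1 (-1.17, limma adjusted p = 0.0139). C1orf162 changed by -1.26 (limma adjusted p = 0.0226) and lost its call without TREM2-R47H replicates 2, 3 or 7 or SORL1-KO replicate 2 (up to 0.0591). DDIT4L, a stress-responsive inhibitor of mTOR, changed by -0.93 (limma adjusted p = 0.0279) and lost its call without TREM2-R47H replicates 1, 2, 3, 5, 6 or 7 (up to 0.0635).

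For some genes called lower in TREM2-R47H, the WT mean was nearer to TREM2-R47H than to SORL1-KO. The synaptic vesicle gene SYNGR3, chosen after its values were seen, averaged 0.294 ± 0.197 TPM in TREM2-R47H and 1.93 ± 0.89 TPM in SORL1-KO (SD, n = 7 each; change -1.14, limma adjusted p = 0.00531). Its means in the other 5 groups were between 0.16 and 0.69 TPM. ACE, the angiotensin-converting enzyme, averaged 2.30 ± 0.895 TPM in TREM2-R47H and 6.11 ± 2.26 TPM in SORL1-KO, against 3.32 ± 1.91 TPM in WT (SD, n = 7 each). The change of -1.09 was called (limma adjusted p = 0.0196) but not without TREM2-R47H replicate 7 (0.0514). WT means of 1750 TPM for CTSD, 1.23 TPM for CP and 6.41 TPM for DDIT4L were also nearer to TREM2-R47H. DDIT4L averaged 5.70 TPM in TREM2-R47H and 12.2 TPM in SORL1-KO. SORL1, whose edit defines SORL1-KO, and ACE were the calls among 36 kept Alzheimer risk genes, against 1.02% called of all kept genes.

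Other lists held few or no calls. MSR1, CTSB and CTSD were the 3 calls among 30 kept genes of disease-associated microglia, and MSR1 was the 1 call among 24 kept genes of complement and phagocytosis, against 0.786% called lower of all kept genes. The medians of these lists were -0.25 and -0.35, against -0.03 over all kept genes. At an unadjusted limma p below 0.05, 10 and 13 of their genes were lower and 2 and 0 higher, against 10.4% and 3.52% of all kept genes. Without the 3 libraries that stand apart, 6 genes of the complement list were called lower, against 180 of 13351 kept genes in that fit. No gene was called among 28 kept homeostatic microglial genes (median -0.31) or 10 of border-associated macrophages (median -0.84). None was called among 18 of MHC class II presentation (median -0.25) or 21 of apolipoproteins and lipid efflux (median -0.04). At an unadjusted limma p below 0.05, 12, 6, 1 and 4 genes of these 4 lists were lower, against 10.4% of all kept genes. Higher at that p were 1, 1, 0 and 1, against 3.52%. CD163, a haemoglobin scavenger receptor chosen after its values were seen, came closest among the macrophage genes, at 35.1 ± 17.2 TPM in TREM2-R47H and 96.3 ± 47.7 TPM in SORL1-KO (SD, n = 7 each; change -1.44, limma adjusted p = 0.0568). The 35 kept genes of retromer and endosomal sorting, the machinery that SORL1 works with, had no call (1.02% of all kept genes were called). Their median was -0.11, and 32 of the 35 were below 0, against 7566 of 13351 over all kept genes. At an unadjusted limma p below 0.05, 8 of the 35 were lower and 0 higher, against 10.4% and 3.52% of all kept genes. SORT1, the other VPS10-domain receptor with a known role in lysosomal sorting, was not called. Genes of cholesterol synthesis and uptake lay above 0 in 24 of 25 cases, with a median of 0.36 and 0 calls at the adjusted threshold (4 above 0 with an unadjusted p below 0.05, against 3.52% of all kept genes). Without the 3 libraries that stand apart, the median of the cholesterol list was 0.07, that of MHC class II -0.02 and that of apolipoproteins 0.03. Those of the border-associated and homeostatic lists were -0.62 and -0.26, with 2 genes called lower in each (180 of 13351 kept genes). The type I interferon list had a median of 0.23 and 0 calls among 29 kept genes, with 0 at an unadjusted p below 0.05 (13.9% of all kept genes). Its direction rested on TREM2-R47H replicate 4: without that library the median was -0.16 with 23 of 29 genes below 0, and without the 3 libraries that stand apart it was 0, with 15 above and 14 below. The cell cycle list had a median of 0.19 and 0 calls among 31 kept genes. That median was 0.02 without SORL1-KO replicate 7 and 0.03 without the 3 libraries, where 2 genes were called lower (180 of 13351 kept genes).

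**Figure D5:**
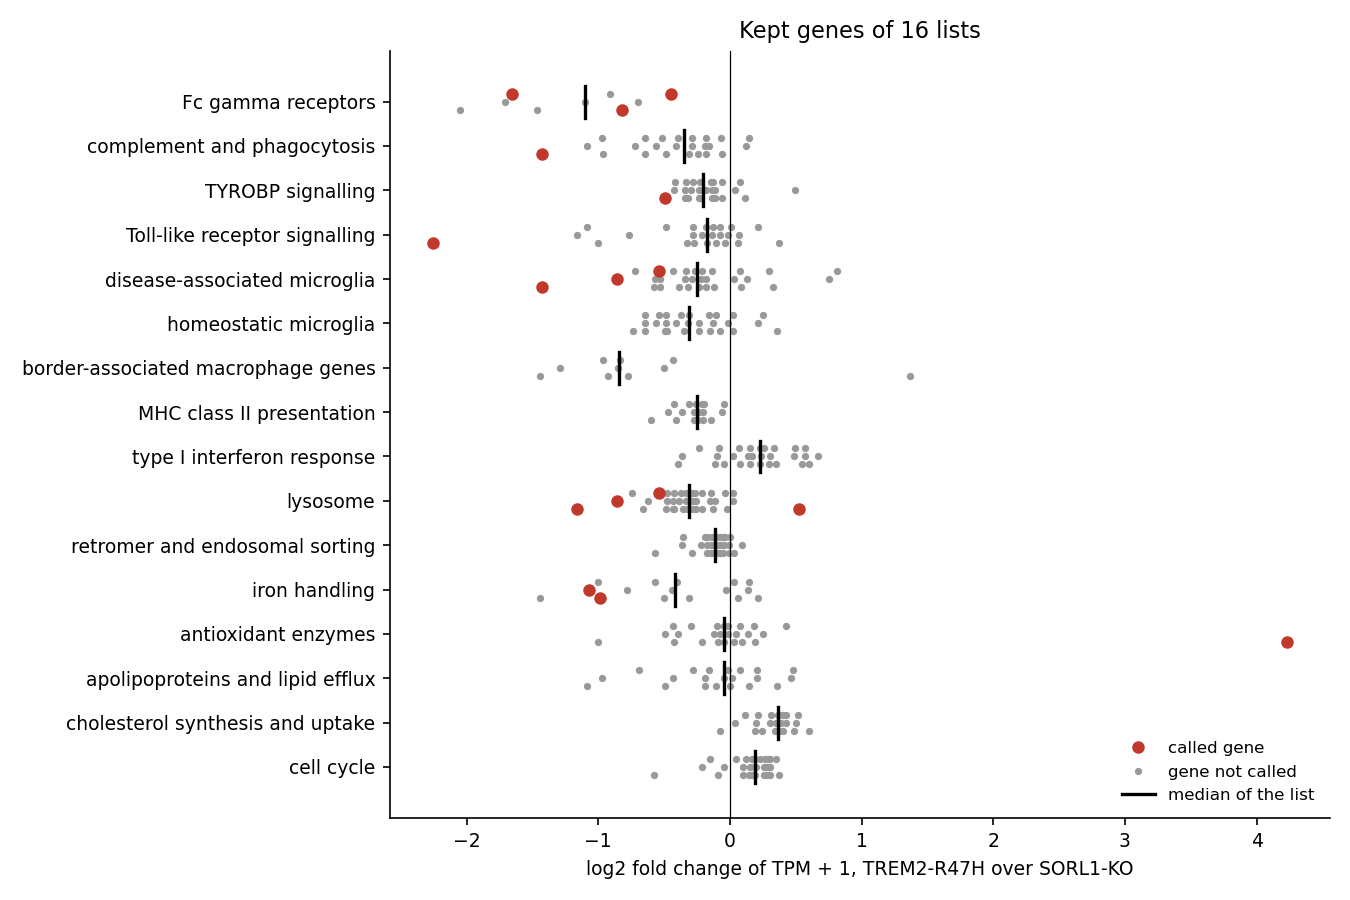
Log2 fold change of TPM + 1, TREM2-R47H over SORL1-KO (x axis), for the kept genes of 16 lists (y axis); red points are called genes, grey points are not, and black lines are list medians. The Fc gamma receptor list has its median at -1.10 with all 9 genes below 0, and CAT at 4.23 stands alone in the antioxidant list.

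The called genes were set beside the other lines of the series. For 118 of the 136 called genes (86.8%) the WT mean was nearer to SORL1-KO than to TREM2-R47H, against 61.5% of all kept genes. The corresponding share was 89.7% in SORL1-A528T (72.5% of all kept genes) and 77.9% in TREM2-KO (69.1%). Among the 105 genes called lower the share for WT was 92.4%, and among the 31 called higher it was 67.7%. WT means nearer to TREM2-R47H than to SORL1-KO were seen at 18 called genes, CAT, S100A6 and MMADHC among them. These shares are descriptions with no test. Over all kept genes, the median change per chromosome lay between -0.056 and 0.057.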

How the data were processed

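RNA was measured in 14 libraries, 7 of TREM2-R47H and 7 of SORL1-KO, out of 40 in 7 groups. The authors deposited TPM per gene for 60504 genes, with 2 decimals. Per the submitters' processing notes, cutadapt 1.18, STAR 2.7, RSEM 1.3.1 and DESeq2 were used. Genome build and strand setting: not given in the sources used here. TPM holds no read counts, so no count model was run, and intervals that need depth are not given. Symbols and positions came from GENCODE release 29 (GRCh38) by gene ID, for 94.2% of IDs.

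Genes reaching 1 TPM in 7 or more of the 14 libraries were kept. The deposited TPM values were transformed to log2(TPM + 1), which understates changes of low genes, and tested with limma 3.58.1 (trend and robust options, R 4.3.3), with Benjamini-Hochberg adjustment over the 13351 kept genes. Called means an adjusted p below 0.05. APOE, TREM2 and SORL1 also had 2-sided exact permutation tests (scipy 1.17.1, pandas 2.3.3, Python 3.11.15). The procedure was tested on simulated data.

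Named genes are APOE, TREM2 and SORL1, the 14 largest called changes each way without overlap and with at least 5 TPM in a line, and up to 4 called members of each list. Some results that meet this rule are not reported here. Other genes are said to be chosen after their values were seen. The lines, gene lists and tests were chosen with earlier results of these data known. Alternatives were 12 other settings and leaving out each library. By the correlation of their deviations, the replicate numbers paired the libraries only in part (above 0.1 in 5 of 7 pairs). The fit therefore had no block, and a fit with the block is among the alternatives.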

Additional observations from a re-analysis of the deposited data

Results flagged for a closer look

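TREM2-R47H replicate 4 was apart from the other 6 libraries of its line in TREM2, at 645.65 TPM against 391.05 to 465.84 TPM, and its gap to the nearest library was 0.651 of the range of the line. The same library was apart in SORL1, at 80.16 TPM against 52.11 to 59.42 TPM, a gap of 0.696 of the range. Both gaps were above Dixon's 95% critical value for 7 libraries, which chance passes in about 1 in 20 groups, and these were 2 of 88 groups of values examined. Without this library and the other 2 that stand apart, the change was -0.14 for TREM2 and 1.83 for SORL1.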

How the results depend on the processing

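The count of 136 called genes (31 higher, 105 lower) depended on the setting, while APOE, TREM2 and SORL1 kept their direction and their side of the threshold in all alternatives run. No filter on low values gave 52 calls (14 higher, 38 lower), all 40 libraries in the fit 322 (52 and 270), array weights 696 (144 and 552), and averaging libraries 5 and 6 gave 52 (12 and 40). Libraries 5 and 6 were the closest pair of SORL1-KO, with an SD of log2 differences of 0.1372 over 2791 well-expressed genes. In TREM2-R47H that SD was 0.1701, and replicates 1 and 7 were closer (0.1226). The labels do not say whether such close libraries were separate cultures, so the p-values may overstate the number of independent samples. Leaving out the 3 libraries that stand apart, chosen after seeing the data, gave 228 (48 and 180). The genes called lower were 66 with median-ratio scaling, 56 with quantile normalization and 158 with a stromal score as covariate. Leaving out 1 library gave 54 to 192 calls, 15 to 38 higher and 39 to 154 lower. The replicate block gave 339 calls (85 higher, 254 lower); same-numbered libraries had correlations of deviations between -0.404 and 0.635, above 0.1 in 5 of 7 pairs, and 3 TREM2-R47H and 4 SORL1-KO libraries correlated best with their own number, which is a hint from the data and not the design. ATP8B2 was not called under the block (limma adjusted p = 0.0573). The causes of these shifts were not tested. With no filter on low values, S100A9, FCGR2B, C1orf162, ATP6V0D2, NFKBIZ, ACE, SLC11A1, CP, DDIT4L, FES, FCGRT, CTSD, ZFAS1, STK26, ATP8B2, DCLK2 and CTSW lost their calls, and these except C1orf162 and ACE also lost them with libraries 5 and 6 averaged, as did DOK3 and NCF4. CTSD, CP and S100A9 lost theirs with the stromal score as covariate, CP with a pseudocount of 0.1 TPM, and S100A9 with one of 5 TPM or all 40 libraries. Called in the test as reported and in all alternatives were 32 genes (9 higher, 23 lower). TPM gives no depth, so the precision of genes near 1 TPM is unknown.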
